A study of Mus musculus with 16 samples.

Results

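The genes examined were the calcium/calmodulin-dependent protein kinase II (CaMKII) subunits Camk2a, Camk2b, Camk2d and Camk2g, the CaMKII inhibitor Camk2n1, the nuclear kinase Camk4, the calmodulin genes Calm2 and Calm3, and neurogranin (Nrgn). These 9 genes were chosen by symbol among 17986 genes with a value in every library, and all 9 passed the filter on low values that left 11892 genes for testing. Their levels had been measured by bulk RNA sequencing of CA1, the hippocampal output field, cut from frozen brain sections with a laser microscope. All mice were males aged 3 to 6 months on a C57Bl6 background, labelled either wild type or Neil3-/-. Neil3 encodes a DNA glycosylase of base excision repair. The labels do not say which part of the gene was deleted. Home cage mice had no intervention. Exploration mice were trained in an open field with sides of 50 cm for 20 min per day over 1 week, and death followed their last session by 20 min. There were 2 libraries of each genotype label from the home cage and 3 of each after exploration, 10 in all, and 6 further samples were not analysed here.

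In a neuron, calcium that enters through NMDA receptors binds calmodulin, and calcium-loaded calmodulin switches on CaMKII. CaMKII is a ring of alpha and beta subunits in forebrain neurons. It phosphorylates itself and stays active after the calcium has gone, and it is required for long-term potentiation at CA1 synapses. Neurogranin is a small IQ-motif protein of dendrites and spines that holds calmodulin when calcium is low and frees it when calcium rises. Camk2n1 encodes a peptide inhibitor of active CaMKII. CaMKIV, the product of Camk4, works mainly in the nucleus, where it phosphorylates CREB. The mRNAs of Camk2a and Nrgn are also carried into dendrites.

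Neil3 went against the genotype labels. It was listed at 0 FPKM (fragments scaled to transcript length and library depth) in both wild type home cage libraries, whereas the Neil3-/- home cage libraries had 13.8 and 15.2 FPKM. The exploration libraries gave 0, 0 and 0.05 FPKM for wild type and 15.1, 11.8 and 8.35 FPKM for Neil3-/-. The groups are therefore called WT-labelled and KO-labelled, and each genotype difference is KO-labelled relative to WT-labelled. Depth was roughly estimated at 18600000 to 20000000 fragments in each library. Summed markers of CA1 pyramidal cells lay between 641 and 780 FPKM, and those of dentate granule cells between 1.16 and 2.26 FPKM. Markers of the neighbouring field CA2 summed to 125 to 280 FPKM and those of CA3 to 11.3 to 49.2 FPKM. Oligodendrocyte markers summed to 137 to 365 FPKM and choroid plexus markers to 9.40 to 235 FPKM, so the libraries were not CA1 pyramidal cells alone. Each environment stands in its own block of the deposited table, so environment and block cannot be told apart. The design text counts 2 animals in each home cage group and 3 in each group after training, as many as the libraries.

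The 9 genes spanned more than 3 orders of magnitude. Because FPKM is scaled to transcript length, levels can be set side by side. Calm2 was the most abundant, with a mean of 3391 FPKM ± 322 (SD, n = 10), which ranked 2 among all genes in both blocks. Nrgn ranked 5 with 2896 FPKM ± 295 (SD, n = 10), and Calm3 ranked 9 with 1749 FPKM ± 150 (SD, n = 10). Calmodulin and the protein that buffers it thus stood near the top of the CA1 transcriptome. Camk2a, the alpha subunit, ranked 65 with 608 FPKM ± 50.8 (SD, n = 10), and Camk2b, the beta subunit, ranked 114 with 440 FPKM ± 75.8 (SD, n = 10). Camk2n1 had a mean of 165 FPKM ± 24.9 (SD, n = 10). Camk2g, the gamma subunit, had 33.7 FPKM ± 2.63 (SD, n = 10), and Camk4 had 10.8 FPKM ± 1.32 (SD, n = 10). Camk2d, the delta subunit, was lowest with 1.42 FPKM ± 0.289 (SD, n = 10). This order held in 10 of 10 libraries, and the ranges of neighbours overlapped only for Calm2 and Nrgn. The estimated number of fragments behind a value was 77.0 to 144 for Camk2d and at least 477 for each of the other members.

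**Figure D1:**
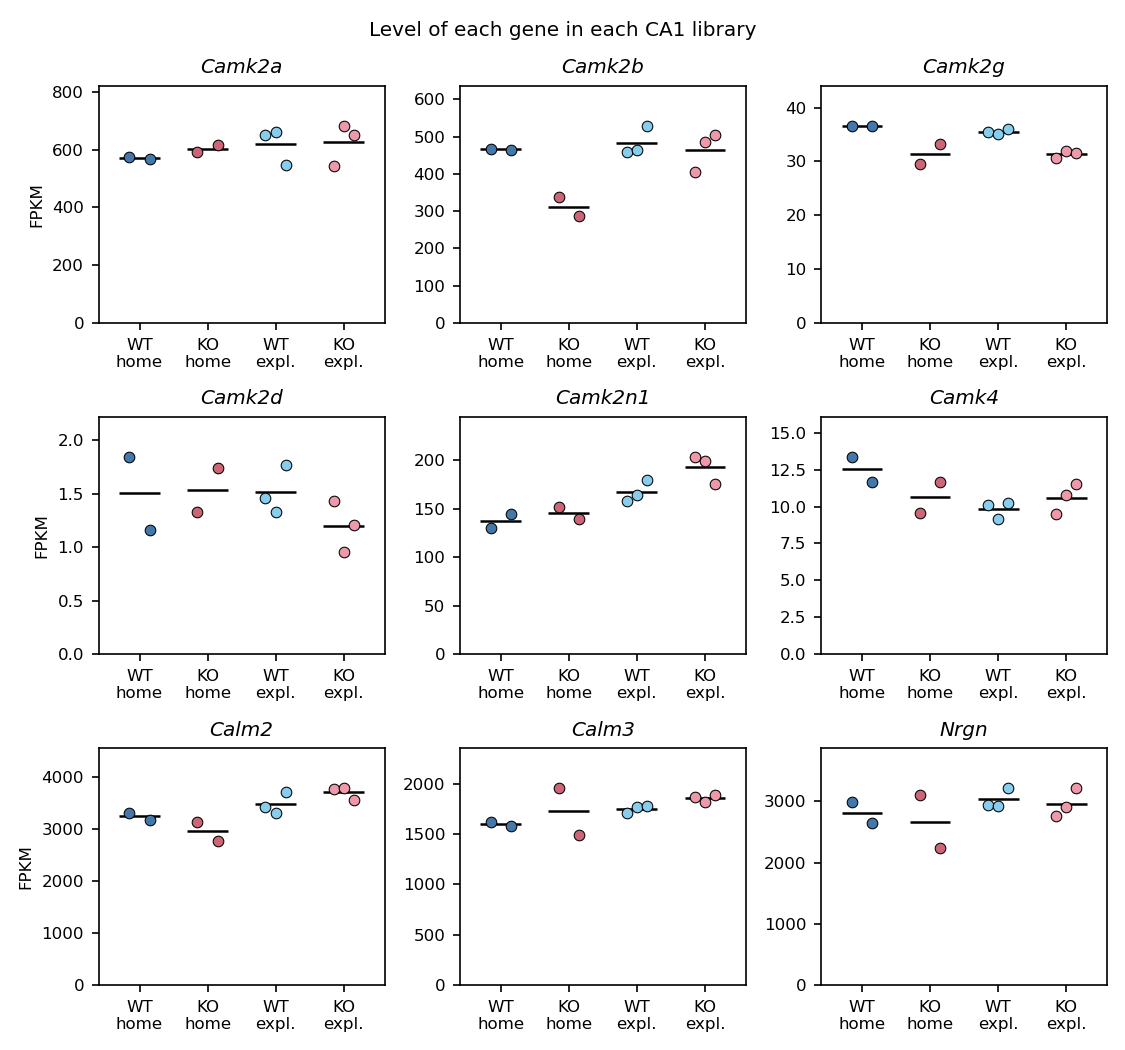
FPKM of each of the 9 genes (y axis, its own scale from 0 in each panel) in each library, by group of genotype label and environment (x axis). Points are libraries and horizontal bars are group means. Camk2b has both KO-labelled home cage libraries, at 337 and 287 FPKM, below every other library.

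Camk2b, whose subunit ties the CaMKII ring to F-actin, had the largest differences among the members on the log2(FPKM + 1) scale. By the fold from the lowest to the highest library, the low-level Camk2d spanned 1.93 and Camk2b 1.84. It was 467 and 464 FPKM in the WT-labelled home cage libraries and 337 and 287 FPKM in the KO-labelled ones. After exploration it was 458, 463 and 530 FPKM in WT-labelled mice and 404, 485 and 505 FPKM in KO-labelled mice. The KO-labelled home cage libraries stood alone below the rest, and the exploration groups overlapped. In the home cage Camk2b was lower in KO-labelled mice by -0.58 on the log2(FPKM + 1) scale (SE 0.12, 95% interval -0.85 to -0.31, limma adjusted p = 0.0298). It was the 1 member called of 9 in that comparison, where 3.57% of all genes tested were called at an adjusted p under 0.05. In KO-labelled mice Camk2b was higher after exploration than in the home cage by 0.57 (SE 0.11, 95% interval 0.33 to 0.82, limma adjusted p = 0.00481). Both comparisons use the same KO-labelled home cage libraries. In WT-labelled mice the same difference was 0.05 (95% interval -0.19 to 0.30). The difference between the responses was 0.52 (95% interval 0.17 to 0.86), with an unadjusted limma p of 0.00674 and an adjusted p of 0.123, which did not pass. Without KO-labelled exploration library 1 that difference was 0.62 with a limma adjusted p of 0.0389.

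The lower Camk2b in the home cage kept its call under 12 of 17 alternatives. Its log2 difference lay between -0.69 and -0.47 across them. The call was lost without the filter on low values (adjusted p = 0.0795) and without WT-labelled home cage library 1 (0.197), WT-labelled home cage library 2 (0.101), KO-labelled home cage library 2 (0.173) or WT-labelled exploration library 1 (0.0503), by limma in each case. Markers of other cells moved in the same comparison. In the home cage 3 of 6 astrocyte markers were called higher in KO-labelled mice, and their sum was 199 to 231 FPKM against 124 to 135 FPKM. Microglial markers summed to 33.7 to 37.7 FPKM against 25.6 to 27.2 FPKM, with 1 of 6 called higher. Oligodendrocyte markers summed to 188 to 225 FPKM against 137 to 164 FPKM. Of 4 endothelial markers 1 was called higher, of 2 choroid plexus markers 1 was called lower, and of 6 CA1 markers 1 was called higher and 1 lower. Choroid plexus markers summed to 9.40 to 14.2 FPKM against 17.8 to 235 FPKM. Markers of pyramidal cells of all fields summed to 1588 to 1610 FPKM in KO-labelled and 1453 to 1494 FPKM in WT-labelled libraries. The part of these markers in the Camk2b difference was not tested. In bulk tissue, fewer cells of a type and less RNA per cell cannot be told apart.

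The Camk2b gene lies on the minus strand of chromosome 11, from 5969644 to 6066362 in GRCm38 (GENCODE annotation). Camk2d lies on the plus strand of chromosome 3, from 126596302 to 126846326. The 250 bases before a RefSeq start (GRCm38.p6) are shown for the subunit gene that varied most on the log2(FPKM + 1) scale and the one with the lowest level, 5′ to 3′ on the gene's strand, with GC boxes (GGGCGG or its reverse complement CCGCCC, searched on both strands) in capitals. The Camk2b window is chr11:6065749-6065998 on the minus strand, and the Camk2d window is chr3:126596701-126596950 on the plus strand. Both windows lie within the GENCODE span of their gene given above, so they are not the sequence before its outermost start.
Camk2b: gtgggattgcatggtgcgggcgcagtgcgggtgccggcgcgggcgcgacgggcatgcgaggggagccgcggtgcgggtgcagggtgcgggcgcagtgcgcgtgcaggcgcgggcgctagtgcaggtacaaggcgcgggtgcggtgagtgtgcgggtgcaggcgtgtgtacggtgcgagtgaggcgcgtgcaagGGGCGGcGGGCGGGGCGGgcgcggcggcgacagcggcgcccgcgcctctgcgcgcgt
Camk2d: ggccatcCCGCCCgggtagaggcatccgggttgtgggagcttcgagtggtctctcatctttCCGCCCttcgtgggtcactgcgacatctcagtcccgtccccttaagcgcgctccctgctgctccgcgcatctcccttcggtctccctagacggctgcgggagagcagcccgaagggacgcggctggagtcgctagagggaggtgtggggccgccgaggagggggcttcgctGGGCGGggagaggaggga
Each window held 3 GC boxes, a motif found in 32.7% of 32851 windows of the same length in the RefSeq table. Their GC contents were 78.4% for Camk2b and 68.4% for Camk2d, against a median of 52.4%. Neither held TGACG, the core of the cAMP response element, present in 17.8% of windows, or TATAAA, present in 12.4%, on either strand. These matches describe letters and not binding. Of the 9 genes, 4 had a window in the table, and 2 of those overlapped annotated exons and are not shown.

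Camk2a, the subunit that makes up most of the forebrain enzyme, was 575 and 569 FPKM in WT-labelled and 590 and 617 FPKM in KO-labelled home cage mice. The exploration values were 649, 662 and 545 FPKM in WT-labelled and 544, 683 and 651 FPKM in KO-labelled mice. The exploration groups overlapped, and the home cage groups did not. No comparison was called for Camk2a, and its log2 differences ran from -0.06 to 0.11. The 95% intervals of the 4 comparisons between groups reached up to 0.36 (WT-labelled, exploration minus home cage).

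Expressed as a share of the 4 summed CaMKII subunit levels, the make-up of the kinase mRNA stood apart in the KO-labelled home cage libraries. Camk2a held 53.2% and 53.1% of the sum in WT-labelled home cage libraries and 61.6% and 65.7% in KO-labelled ones. Camk2b held 43.2% and 43.3% in the former and 35.2% and 30.6% in the latter. The ratio of Camk2a to Camk2b was 1.23 in both WT-labelled home cage libraries, and 1.75 and 2.15 in the KO-labelled ones. After exploration it was 1.42, 1.43 and 1.03 in WT-labelled and 1.35, 1.41 and 1.29 in KO-labelled libraries. The KO-labelled home cage libraries thus had the 2 highest ratios, and the exploration groups overlapped. Camk2g made up 2.66% to 3.54% of the sum and Camk2d 0.0799% to 0.185%. The shares have a common sum, so a lower Camk2b by itself raises the Camk2a share and the ratio. The Camk2a level differed by 0.08 between labels in the home cage (limma adjusted p = 0.791). The shares and the ratio are therefore not separate from the Camk2b difference above. They are descriptions and were not tested.

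**Figure D2:**
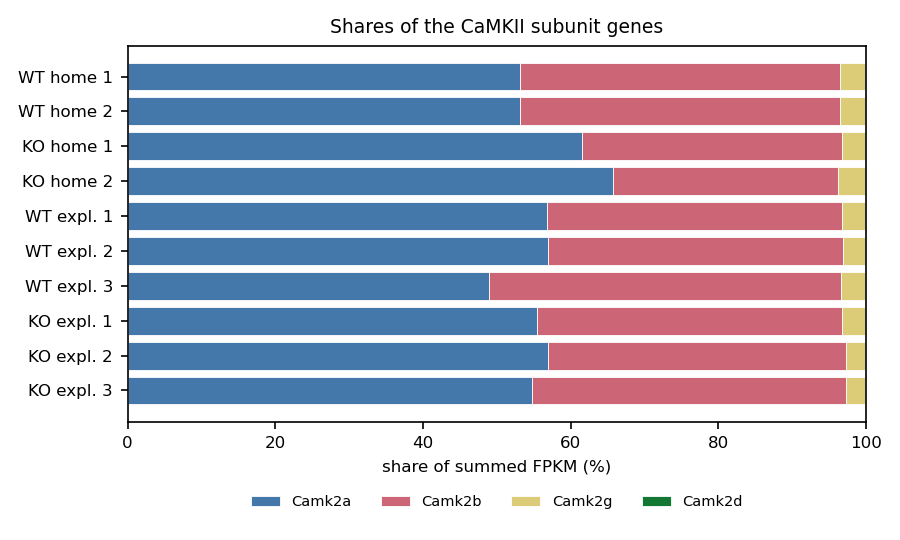
Shares in percent (x axis) of the 4 CaMKII subunit genes in their summed FPKM, as stacked bars, 1 bar per library by genotype label and environment (y axis). Camk2d, at 0.0799% to 0.185%, is too thin to see, and Camk2a is at 61.6% and 65.7% in the KO-labelled home cage libraries.

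Camk2g, a subunit found in many tissues that shuttles calmodulin to the nucleus in neurons, had the smallest spread of the 9 genes, with an SD of 0.11 on the log2 scale over the 10 libraries. It was 36.6 and 36.7 FPKM in WT-labelled and 29.4 and 33.2 FPKM in KO-labelled home cage mice. Exploration libraries had 35.5, 35.1 and 35.9 FPKM in WT-labelled and 30.6, 31.9 and 31.6 FPKM in KO-labelled mice. Every KO-labelled library was below every WT-labelled library. The log2 difference was -0.22 in the home cage (95% interval -0.39 to -0.05, limma adjusted p = 0.157) and -0.17 after exploration (95% interval -0.31 to -0.03, limma adjusted p = 0.207), and neither passed. Camk2g lies on chromosome 14, from 20734875 to 20794088 on the minus strand in GRCm38.

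Camk2d, which is prominent in heart, was 1.85 and 1.16 FPKM in WT-labelled and 1.33 and 1.74 FPKM in KO-labelled home cage libraries. After exploration its range was 1.33 to 1.77 FPKM in WT-labelled and 0.96 to 1.43 FPKM in KO-labelled mice. The groups overlapped in all 4 simple comparisons. With 2 libraries in a home cage group, a log2 difference between -0.34 and 0.40 was within the 95% interval of the genotype comparison there.

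Camk2n1, the inhibitor, was higher in the exploration libraries. It was 130 and 145 FPKM in WT-labelled and 152 and 139 FPKM in KO-labelled home cage mice. With exploration it was 158, 164 and 180 FPKM in WT-labelled and 204, 200 and 176 FPKM in KO-labelled mice. All 6 exploration libraries lay above all 4 home cage libraries. The change in KO-labelled mice was 0.40 (SE 0.09, 95% interval 0.20 to 0.60, limma adjusted p = 0.00928). In WT-labelled mice it was 0.28 (SE 0.09, 95% interval 0.08 to 0.48), with a limma adjusted p of 0.0885 that did not pass. The difference between these responses was 0.12 (95% interval -0.16 to 0.40). Between genotype labels after exploration Camk2n1 differed by 0.21 (95% interval 0.03 to 0.38, limma adjusted p = 0.238), and those groups overlapped. Camk2n1 lies on chromosome 4, from 138454314 to 138460123 on the plus strand in GRCm38.

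Camk4 was 13.4 and 11.7 FPKM in WT-labelled and 9.57 and 11.7 FPKM in KO-labelled home cage libraries. In the exploration libraries it was 10.1, 9.12 and 10.2 FPKM in WT-labelled and 9.48, 10.8 and 11.5 FPKM in KO-labelled libraries. The WT-labelled home cage libraries lay above WT-labelled exploration libraries, with a log2 difference of -0.32 (95% interval -0.57 to -0.08, limma adjusted p = 0.109). In KO-labelled mice the difference was 0.00 (95% interval -0.24 to 0.24), and the groups overlapped. An exon of Camk4 overlaps 2310026I22Rik on the opposite strand. The use of strand in counting is not given in the sources used here, so reads of the pair cannot be told apart.

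Calm2 and Calm3 encode an identical calmodulin protein. Calm2 was 3309 and 3170 FPKM in WT-labelled and 3127 and 2771 FPKM in KO-labelled home cage mice. After exploration it was 3422, 3311 and 3698 FPKM in WT-labelled and 3761, 3791 and 3548 FPKM in KO-labelled mice. Exploration libraries lay above home cage libraries within each label. Calm2 was called higher after exploration in KO-labelled mice, by 0.33 (SE 0.11, 95% interval 0.10 to 0.56, limma adjusted p = 0.0386), a direction that turned to -0.10 (adjusted p = 0.261) under quantile normalization. In WT-labelled mice the difference was 0.10 (95% interval -0.13 to 0.33), and the difference between responses was 0.23 (95% interval -0.10 to 0.56). The call held under 5 of 17 alternatives. It was 0.11 (limma adjusted p = 0.433) once trends with transcript length and GC content were removed.

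Calm3 was 1620 and 1579 FPKM in WT-labelled and 1963 and 1486 FPKM in KO-labelled home cage libraries. After exploration its range was 1711 to 1777 FPKM in WT-labelled and 1816 to 1886 FPKM in KO-labelled mice. The KO-labelled libraries lay above the WT-labelled ones after exploration, by 0.08 (95% interval -0.14 to 0.31, limma adjusted p = 0.709). Calm2 was the higher of the pair in every library. Calm2 lies on chromosome 17, from 87433412 to 87446935, and Calm3 on chromosome 7, from 16915379 to 16924114, both on the minus strand in GRCm38. How reads shared by the calmodulin genes were assigned is not given in the sources used here.

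Nrgn was 2987 and 2641 FPKM in WT-labelled and 3099 and 2239 FPKM in KO-labelled home cage libraries. Exploration gave 2947, 2929 and 3226 FPKM in WT-labelled and 2760, 2904 and 3225 FPKM in KO-labelled libraries. The groups overlapped in every simple comparison, and KO-labelled home cage library 2 was the lowest of all. Log2 differences ran from -0.09 to 0.17 and none passed. The genotype difference in the home cage had a 95% interval of -0.43 to 0.25. Nrgn lies on chromosome 9, from 37544492 to 37552904 on the minus strand in GRCm38.

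Read together, 1 of 9 members was called between genotype labels in the home cage, and 0 of 9 by limma after exploration, where 2 had an unadjusted p under 0.05 and 0.597% of all genes were called. Between environments in WT-labelled mice 0 of 9 were called by limma, 2 had an unadjusted p under 0.05, and 6.31% of all genes were called. In KO-labelled mice Camk2b, Camk2n1 and Calm2 rose, 3 of 9 members, where 28.6% of all genes were called, so that this share was near the background. For the difference between the responses 0 of 9 were called by limma, 1 had an unadjusted p under 0.05, and 0.875% of all genes were called. The median log2 difference of the 9 was -0.09 in the home cage and 0.02 after exploration between labels, and 0.10 in WT-labelled and 0.12 in KO-labelled mice between environments. Over all genes tested the same medians were -0.02, -0.01, -0.02 and -0.04.

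Groups did not overlap for 5 of 9 members between labels in the home cage, against 46.9% of all genes, and for 2 of 9 after exploration, against 24.9%. They did not overlap for 5 of 9 between environments in WT-labelled mice, against 47.8%, and for 3 of 9 in KO-labelled mice, against 52.1%. The members' shares lay on both sides of the background. Without KO-labelled home cage library 2 none of the 3 changes in KO-labelled mice passed. Camk2b was then at 0.46 (limma adjusted p = 0.0722), Camk2n1 at 0.34 (0.108) and Calm2 at 0.24 (0.185). In the same comparison 4 of 6 CA1 markers were called lower and 1 higher, and their sum was 671 to 735 FPKM in the home cage and 641 to 780 FPKM after exploration. CA3 markers summed to 11.4 to 15.5 FPKM and then 35.1 to 49.2 FPKM, with 2 of 3 tested called higher and 1 lower, and Iyd was at 0 in the home cage. The part of these markers in the changes was not tested. Without KO-labelled home cage library 1, Calm3 and Nrgn passed as well, at 0.32 (limma adjusted p = 0.0186) and 0.40 (0.0297). In a fit that leaves 1 library in a home cage group, that library is assumed to vary like those of the other groups.

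**Figure D3:**
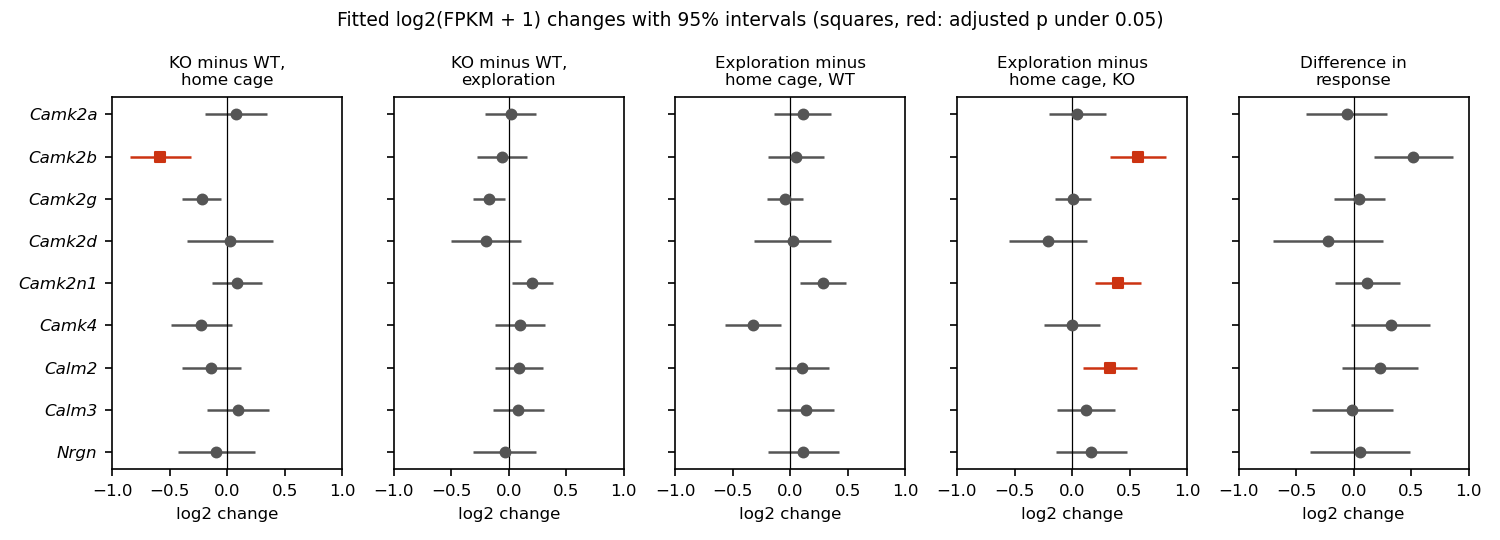
Differences in log2(FPKM + 1) (x axis) of each member (y axis) in the 5 comparisons, 1 panel each, with 95% intervals from limma as bars. Red squares passed an adjusted p of 0.05, which were Camk2b at -0.58 between labels in the home cage and Camk2b, Camk2n1 and Calm2 at 0.57, 0.40 and 0.33 between environments in KO-labelled mice.

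Transcript length moved with the environment comparisons. In KO-labelled mice the median log2 difference was 0.14 over genes with transcripts of up to 1836 nt and -0.19 over genes with transcripts of at least 4316 nt. In WT-labelled mice these medians were 0.13 and -0.14. Calm2 has a transcript of 1205 nt and Nrgn one of 1453 nt, whereas Camk2b has 4004 nt and Camk2n1 4444 nt. With length and GC trends removed, the changes in KO-labelled mice were 0.76 for Camk2b and 0.60 for Camk2n1, and both kept their call. Under quantile normalization they were 0.35 for Camk2b, still called, and 0.24 for Camk2n1 (limma adjusted p = 0.0531).

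Spread over the 10 libraries set the members apart from each other. The SD of log2(FPKM + 1) was 0.28 for Camk2b and 0.22 for Camk2n1, and 0.11 to 0.17 for the other 7. The median SD was 0.17 over all tested genes and 0.15 over the 869 tested genes with a mean of at least 100 FPKM. By the root-mean-square distance between centred log2 profiles over the 10 libraries, the closest pair of members was Calm3 and Nrgn, at 0.10. The nearest member to Camk2n1 was Calm2, at 0.12, and the nearest to Camk2b was also Calm2, at 0.19. The farthest pair was Camk2b and Camk2d, at 0.34.

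Among 6123 genes with a mean of at least 10 FPKM, those nearest to Camk2b were Pde1b at 0.08, Sec14l1 at 0.08 and Mpped2 at 0.09, against a median distance of 0.28. Pde1b encodes a phosphodiesterase that calmodulin stimulates. It was 30.2 to 35.2 FPKM in WT-labelled and 20.8 to 23.1 FPKM in KO-labelled home cage mice, and 29.7 to 36.9 FPKM in all exploration libraries. As with Camk2b, the KO-labelled home cage libraries stood alone. Pde1b was picked for its likeness to Camk2b over these same libraries, so the shared pattern follows from that choice. Nubp2, Eif3e and Psmb1 were nearest to Camk2n1, at 0.06, 0.06 and 0.07 against a median of 0.22. Fbxw2, Nptn and Arpc1a were nearest to Calm2, each at 0.04 against a median of 0.17. Nptn encodes neuroplastin, a partner of plasma membrane calcium pumps.

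Beyond the 9 genes, 54 further genes of calmodulin signalling were taken from 9 lists, and 52 of them could be tested. Calml4 and Pde1c did not pass the filter. The lists were chosen with earlier results of these data known, so a share above that of all genes is no test of them. Between labels in the home cage 3 were called higher and 2 lower, 9.62% of the 52 against 3.57% of all genes. After exploration 0 were called between labels by limma, and 17 had an unadjusted p under 0.05. Between environments 3 were called higher and 3 lower in WT-labelled mice (11.5% against 6.31% of all genes), and 13 higher and 17 lower in KO-labelled mice (57.7% against 28.6%). With length and GC trends removed the last counts were 17 and 11, and without KO-labelled home cage library 2 they were 2 and 1. Leaving out 1 library gave 0 to 5 higher and 0 to 3 lower in the home cage, where WT-labelled home cage library 1 left 0 in either direction. In WT-labelled mice it gave 1 to 4 higher and 0 to 3 lower, with the fewest without WT-labelled home cage library 2. For the difference between the responses 0 were called by limma and 25 had an unadjusted p under 0.05. Median log2 differences over the 52 were 0.02 in WT-labelled and -0.04 in KO-labelled mice between environments.

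The IQ-motif relatives of neurogranin differed from each other. Pcp4, which speeds calcium exchange on calmodulin, rose after exploration in KO-labelled mice by 3.18 (limma adjusted p = 0.00455), from 5.05 to 9.43 FPKM to 46.3 to 113 FPKM. In WT-labelled mice it was 10.7 and 84.3 FPKM in the home cage and 49.7 to 56.3 FPKM after exploration. Pcp4 is also a marker of CA2, the neighbouring field, and its own rise is part of the CA2 sum. With Pcp4, the CA2 markers summed to 125 to 132 FPKM in KO-labelled home cage and 165 to 280 FPKM in KO-labelled exploration libraries. There 2 of 4 tested CA2 markers were called higher, Pcp4 included, and the part of CA2 cells in the result was not tested. Pcp4l1 rose by 0.37 in WT-labelled (limma adjusted p = 0.0441) and 0.57 in KO-labelled mice (0.00266). The WT-labelled call was lost under 9 of 17 alternatives, with an adjusted p of 0.114 once length and GC trends were removed, and the KO-labelled call under none of them. Gap43, which binds calmodulin in axons, was called higher in KO-labelled home cage mice, by 1.01 (limma adjusted p = 0.0415), at 167 to 198 FPKM against 79.4 to 101 FPKM, a call lost under 9 of 17 alternatives. It fell by 1.15 from home cage to exploration in KO-labelled mice (0.00441).

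Camk2n2, the second CaMKII inhibitor, fell by 0.43 in KO-labelled mice after exploration (limma adjusted p = 0.046), opposite to Camk2n1. That call was lost under 12 of 17 alternatives, and without KO-labelled home cage library 2 it was -0.12 (0.562). Of 12 other CaM kinases and their activators, Camk4 among them, 2 rose and 2 fell in KO-labelled mice, where 28.6% of all genes were called. Camk1, a cytosolic CaM kinase, fell by 0.80 (limma adjusted p = 0.0211) and Pnck, its relative, by 0.79 (0.00482). Camkk1, an activating kinase, rose by 0.46 (0.00441). The fall of Camk1 lost its call under 4 of 17 alternatives, and the changes of Pnck and Camkk1 under 1 each. Without KO-labelled home cage library 2 all of these calls were lost, with Camk1 at -0.42, Pnck at -0.73 and Camkk1 at 0.39. Camk1 was also called higher between labels in the home cage, by 1.19 (limma adjusted p = 0.0267), at 9.56 and 17.0 FPKM against 4.53 and 5.65 FPKM, a call lost under 4 of 17 alternatives.

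Calcineurin is the phosphatase that calmodulin activates in opposition to CaMKII. Of 7 genes for its subunits and regulators, 4 rose in KO-labelled mice after exploration and none fell, with a median of 0.25 over the 7. Of all 11892 genes, 1429 were called higher and 1971 lower there. In WT-labelled mice the median over the 7 was 0.11. Ppp3r1, the regulatory subunit, rose by 0.55 in KO-labelled mice (limma adjusted p = 0.00528), from 882 to 1149 FPKM to 1436 to 1527 FPKM. Rcan1, a calcineurin regulator, rose by 0.49 (0.0064), and Ppp3ca, a catalytic subunit, by 0.33 (0.0447). The Ppp3ca call was lost under 11 of 17 alternatives, those of Ppp3r1 and Rcan1 under 1 each, and the remaining call of the 4 under 8. Without KO-labelled home cage library 2 the calls of Ppp3r1, Rcan1 and Ppp3ca were lost, at 0.36, 0.33 and 0.15.

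Enzymes that make or destroy second messengers under calmodulin went in both directions. Of 6 tested, 1 rose and 3 fell in KO-labelled mice after exploration, against 28.6% of all genes called. Nos1, neuronal nitric oxide synthase, fell by 1.30 (limma adjusted p = 0.00185), from 8.73 to 16.4 FPKM to 4.09 to 4.39 FPKM, and that call held under all 17 alternatives run. Pde1b rose by 0.54 (0.00495) and Pde1a fell by 0.53 (0.00386). Between labels in the home cage Adcy8, a calmodulin-stimulated adenylyl cyclase, was lower by -0.77 (limma adjusted p = 0.0327), Pde1b by -0.55 (0.0292), and Adcy3 was higher by 0.45 (0.0471). The Adcy3 call was lost under 11 of 17 alternatives, the Adcy8 call under 6 and the Pde1b call under 5. Adcy8 also fell by 0.62 after exploration in WT-labelled mice (0.0342), a call lost under 7 of 17.

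Among 12 binding partners and substrates of CaMKII at the synapse, 1 rose and 7 fell in KO-labelled mice after exploration, and the median was -0.30, where 28.6% of all genes were called. With length and GC trends removed, 4 of the 7 falls lost their call. Actn2, an actin crosslinker, fell by 0.92 (limma adjusted p = 0.00656) and the NMDA receptor subunit Grin2a by 0.83 (0.0106). In WT-labelled mice, where 6.31% of all genes were called (240 higher and 510 lower), 2 fell and none rose. They were Grin2b, by 0.55 (limma adjusted p = 0.0141), and the AMPA receptor subunit Gria1, by 0.32 (0.0336). With length and GC trends removed these 2 had limma adjusted p-values of 0.0746 and 0.183. In the same WT-labelled comparison 4 of 6 oligodendrocyte, 3 of 6 astrocyte, 3 of 6 microglial and 2 of 2 blood markers were called higher, and their part in these falls was not tested. Oligodendrocyte markers summed to 137 to 164 FPKM in the home cage and 197 to 365 FPKM after exploration. Of 4 plasma membrane calcium pumps, 2 fell in KO-labelled mice, Atp2b4 by 1.29 (limma adjusted p = 0.006) and Atp2b3 by 0.37 (0.0115). Atp2b4 was low, at 1.67 and 4.27 FPKM in KO-labelled home cage and 0.41 to 0.69 FPKM in KO-labelled exploration libraries. Without KO-labelled home cage library 2 both calls were lost, at -0.79 and -0.24. With length and GC trends removed Atp2b3 was at -0.19 (limma adjusted p = 0.0621), and Atp2b4 kept its call.

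Of 8 other RNAs carried into dendrites, 2 rose in WT-labelled mice, and 3 rose and 1 fell in KO-labelled mice. The shares of all genes called there were 6.31% and 28.6%. Bc1, a short noncoding RNA of dendrites, rose by 3.00 in WT-labelled (limma adjusted p = 0.000505) and 1.76 in KO-labelled mice (0.0044). It was 22.9 to 30.4 FPKM in WT-labelled and 33.9 to 94.8 FPKM in KO-labelled home cage libraries, and 140 to 248 FPKM in all exploration libraries. Arc, an immediate early gene, rose by 1.65 in WT-labelled (0.0127) and 1.69 in KO-labelled mice (0.00397). Shank1, a scaffold gene, fell by 1.07 in KO-labelled mice (0.00387). Beside these dendritic RNAs, Camk2a and Nrgn had changes of 0.11 and 0.11 in WT-labelled and 0.05 and 0.17 in KO-labelled mice. None of these changes passed.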

How the data were processed

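FPKM values of CA1 RNA were used as the authors deposited them, in blocks of 4 home cage and 6 exploration libraries with 18257 and 19156 genes. The submitters' processing notes name HISAT, StringTie, GATK, Bowtie2 and RSEM and the builds GRCm38 and mm10. Which tool gave the FPKM, and whether the blocks were normalized together, is not given in the sources used here. Blocks were joined on gene ID (17986 genes).

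Genes that reached 1 FPKM in 2 or more libraries (11892) were tested with limma 3.58.1 in R 4.3.3 on log2(FPKM + 1), a scale that understates changes of low genes. The variance prior followed expression, each of the 4 groups had 1 mean, and there were 6 residual and 5.71 prior degrees of freedom. The fitting was tested on simulated data. Adjusted p-values are Benjamini-Hochberg over all tested genes, called under 0.05, in 5 comparisons. The spacing of low values, with GENCODE transcript lengths, gave an estimate of depth. The match was partial, with a mean cosine of 0.422 to 0.485, where an exact match gives 1. The genes used were selected with a depth near the final estimate assumed, so fragment numbers are approximate.

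The members and lists were chosen with earlier results of these data known. Named were all 9 members, Neil3, up to 3 called genes per list and comparison by size of change, the 3 genes nearest in profile to each called member, and each member's nearest member. Genes named outside this rule (the farthest pair of members, and uncalled values beside called ones) were added after their values were seen. Some genes that the rule would name are not reported here. Alternatives were a pseudocount of 0.1, no filter, size factors, quantile normalization, no variance trend, only the groups compared and leaving out each library. Removing length and GC trends was added after seeing the data.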

Additional observations from a re-analysis of the deposited data

How the results depend on the processing

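Library numbers only name libraries. No paired analysis was possible because the labels give no replicate numbers that groups share. Members called were 0 in the home cage with no filter, 1 between environments in KO-labelled mice under quantile normalization, and 2 in WT-labelled mice with only the groups compared. These 2 were Camk2n1 (adjusted p = 0.04) and Camk4 (0.0468). Leaving out 1 library gave 0 to 1 members in the home cage, 0 to 5 between environments in KO-labelled mice, and 0 to 1 for the difference between responses.

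All genes called in the home cage were 47 with no filter, 652 with length and GC trends removed and 13 to 588 leaving out 1 library. Between labels after exploration they were 16 with no filter, 37 with no variance trend, 36 with only the groups compared and 17 to 104 leaving out 1 library. Between environments they were 1690 in WT-labelled and 1705 in KO-labelled mice with only the groups compared, and 84 to 1004 and 505 to 3568 leaving out 1 library. For the difference between responses limma called 0 with a pseudocount of 0.1, no filter or no variance trend (1897, 2515 and 1910 genes at an unadjusted p under 0.05), and 0 to 436 leaving out 1 library.

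Signs turned for differences that had not passed, and for Calm2 as given above. Under quantile normalization the log2 difference between labels after exploration became -0.0547 for Camk2a, -0.0398 for Calm2 and -0.0299 for Calm3. Between environments it became -0.0807 for Camk2a, -0.11 for Camk2b, -0.11 for Calm2 and -0.19 for Nrgn in WT-labelled mice, and -0.16 for Camk2a, -0.0352 for Camk2g, -0.10 for Calm2, -0.0689 for Calm3 and -0.19 for Nrgn in KO-labelled mice. The Nrgn difference between responses became -0.00352. With length and GC trends removed, differences between labels after exploration became 0.0321 for Camk2b, -0.00484 for Calm2 and 0.0177 for Nrgn. The Camk2g difference between environments in WT-labelled mice became 0.0283, and the Calm3 difference between responses 0.0727. Leaving out 1 library, the home cage range was -0.17 to 0.23 for Camk2d, -0.11 to 0.30 for Calm3 and -0.33 to 0.14 for Nrgn. After exploration the range between labels was -0.0731 to 0.113 for Camk2a, -0.124 to 0.0356 for Camk2b and -0.0983 to 0.0140 for Nrgn. Between environments it was -0.0154 to 0.0894 for Camk2b and -0.18 to 0.22 for Camk2d in WT-labelled mice. In KO-labelled mice it was -0.0189 to 0.145 for Camk2a, -0.0801 to 0.0901 for Camk2g, -0.13 to 0.13 for Camk4, -0.0790 to 0.32 for Calm3 and -0.0678 to 0.40 for Nrgn. For the difference between responses it was -0.15 to 0.0362 for Camk2a, -0.0368 to 0.13 for Camk2g, -0.21 to 0.19 for Calm3 and -0.18 to 0.29 for Nrgn. The cause of these shifts was not tested. Depth limits Camk2d most, and 2 libraries per home cage group limit every comparison that uses them.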
